A study of Mus musculus with 6 samples.

Results

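The matrix metalloproteinase (MMP) genes *Mmp2*, *Mmp3*, *Mmp9*, *Mmp10*, *Mmp12*, *Mmp13* and *Mmp14* and the genes of their tissue inhibitors *Timp1*, *Timp2* and *Timp3* were followed through 3 states of EpH4, a near-normal mouse mammary epithelial cell line. The members were taken by symbol as a fixed list, 7 proteases and 3 inhibitors, and all 10 were found among the 17428 genes of the deposited table. All 10 passed the filter on low coverage (at least 500 sequenced bases in at least 2 libraries). The E cells were the untreated line in medium with serum and insulin. The M cells were the same cells after TGFβ1, an inducer of epithelial-to-mesenchymal transition (EMT), had been in the medium for 7 days. The RE (reverted epithelial) cells were M cells kept without TGFβ1 for another 4 days. No gene was manipulated in any group, all groups derive from 1 cell line, and each group has 2 libraries, described as biological replicates (6 libraries in all).

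MMPs are zinc-dependent endopeptidases that are made as inactive proenzymes and that cut the proteins of the extracellular matrix once the propeptide has been removed. The gelatinases digest denatured collagen and basement membrane collagen, the collagenases open fibrillar collagen, the stromelysins have broad substrates, and the membrane-type MMPs act at the cell surface. TIMPs bind the active site of MMPs and block it, and TIMP2 also takes part, together with the membrane-type MMP14, in the activation of pro-MMP2. In the mammary gland these genes are known for their part in branching and involution, and MMP9 is widely used as a marker of EMT.

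Levels are given as normalized coverage, that is, the sequenced bases of a gene in ppm (parts per 1e+06) of its library after normalization, and as mean ± SD over the 2 libraries of a group (n = 2). The libraries held between 35782513 and 47928557 reads' worth of bases (reads of 50 bases), and coverage of 3 reads' worth, 0.0632 to 0.0787 ppm, was taken as the floor, a limit set by counting error alone. With 2 libraries per group, p-values rest on a spread between replicates pooled per gene over the 3 groups and moderated over all genes. They do not measure the spread of the compared groups alone. Replicates were less alike in the E cells, where their log2 differences had an SD (over genes) of 0.558, than in the M (0.318) and RE cells (0.309). The epithelial label was checked on *Krt8*, *Krt18*, *Cdh1* and *Epcam* (listed as *Tacstd1*), all at 121 ppm or more in every library. Of these, *Epcam* was called lower in M and in RE than in E (−1.27 and −1.24) and *Krt18* lower in RE than in E (−1.35). *Krt8* was called lower in RE than in M (−1.33), a call lost without either M or the first RE library. The calls of *Epcam* and *Krt18* in RE against E were lost in a fit of E and RE alone and without any 1 M or RE library. That of *Epcam* in M against E was lost without either M library. The basal keratin gene *Krt14* was at 225 to 759.6 ppm and was called higher in the M cells (1.42), while *Krt5*, also basal, was at 0.476 ppm or less. The 6 mammary epithelial markers summed to 1634 to 2079 ppm in the E and M libraries and to 1111 and 1178 ppm in the RE libraries. In bulk RNA, fewer cells that express a gene and less RNA per cell cannot be told apart. Differences are log2 fold changes on log2(ppm + 0.1), which understate the changes of low genes, and genes were called when they changed more than 2-fold, up or down, with an adjusted p under 0.01 from limma (Benjamini-Hochberg adjustment over 13893 genes). The 3 comparisons share libraries pairwise and are not independent of each other.

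**Figure D1:**
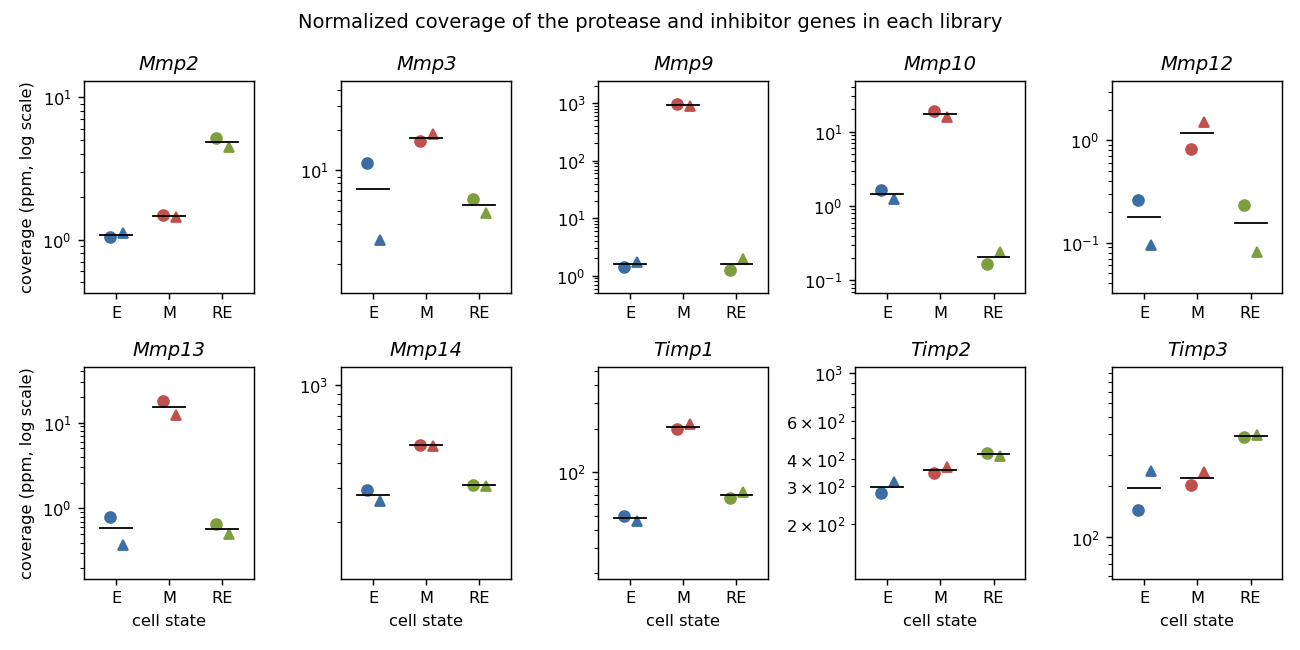
Normalized coverage (ppm, log scale, with a separate range per gene) of the 10 genes in the E, M and RE cells. Circles are first and triangles second replicates, and lines are group means. Both M libraries lie above the other 4 libraries for 7 genes, and both RE libraries do so for *Mmp2*, *Timp2* and *Timp3*.

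The members had 2 patterns. Both M libraries were above the other 4 libraries for 7 of the 10 genes (*Mmp3*, *Mmp9*, *Mmp10*, *Mmp12*, *Mmp13*, *Mmp14* and *Timp1*), as was the case for 24.2% of all genes tested. Both RE libraries were above the other 4 for the remaining 3 (*Mmp2*, *Timp2* and *Timp3*), against 17.8% of all genes, and both E libraries did so for 0 members (20.5%). The libraries of the groups did not overlap for 9 members between E and M (71.1% of all genes), 10 between M and RE (78.6%) and 6 between E and RE (67.0%). In E vs. M, 4 members were called, all of them higher in the M cells (*Mmp9*, *Mmp10*, *Mmp13* and *Timp1*), where 8.41% of all genes were called higher, 8.35% lower and 16.8% in either direction. In M vs. RE, 5 were called, against 12.7% of all genes. The same 4 genes fell, a direction in which 4.79% of all genes were called, and *Mmp2* rose (7.92%). In E vs. RE, 2 were called, *Mmp2* higher (5.93% of all genes) and *Mmp10* lower in the RE cells (3.16%), against 9.09% in both directions together. The median log2 fold change of the members was 1.82 for E vs. M, −1.62 for M vs. RE and 0.11 for E vs. RE, and the medians of all genes tested were within 0.02 of 0.

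**Figure D2:**
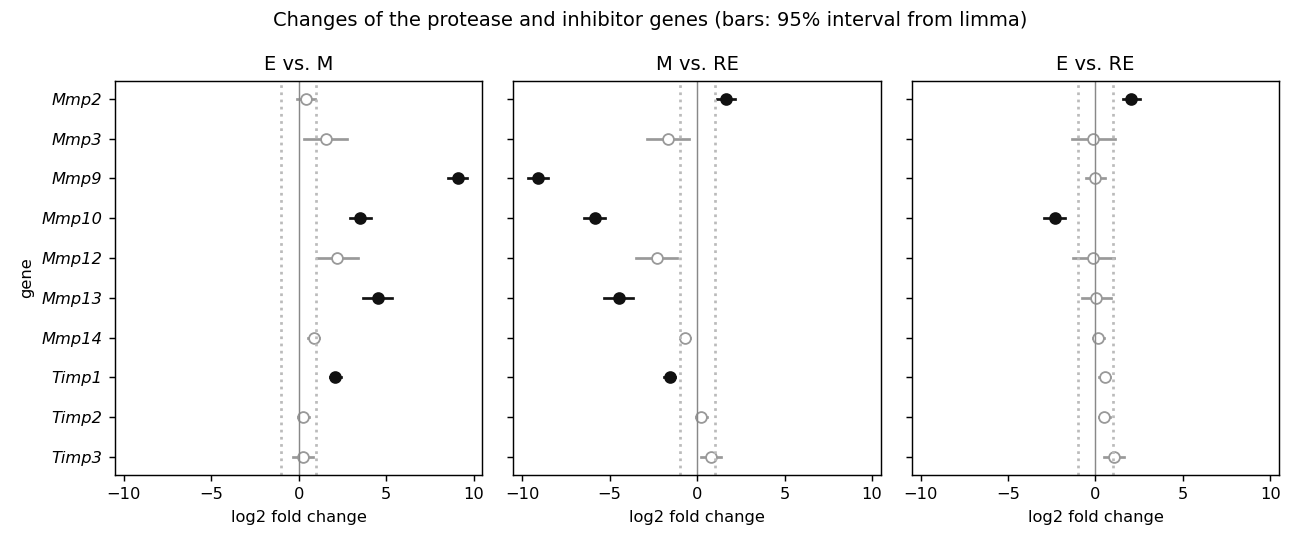
Log2 fold changes of the 10 genes in E vs. M, M vs. RE and E vs. RE (x axis), with the 95% interval from limma as bars. Filled points were called and open points were not, and dotted lines mark the fold threshold of 1. *Mmp9* spans from 9.09 in E vs. M to −9.10 in M vs. RE.

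The gelatinase genes *Mmp9* and *Mmp2* moved in different steps. *Mmp9*, which encodes the gelatinase B that digests basement membrane collagen, was at 1.41 and 1.75 ppm in the E libraries, at 962 and 871 ppm in the M libraries and at 1.25 and 1.97 ppm in the RE libraries. The M libraries stood far above the rest, and the E and RE libraries overlapped. The mean rose 579-fold in the M cells (log2 fold change 9.09 with a standard error of 0.23, limma adjusted p = 1.31e-05) and fell 569-fold from the M to the RE cells (−9.10, SE 0.23, adjusted p = 6.55e-06). Between E (1.58 ± 0.239) and RE (1.61 ± 0.511) the 95% interval of the log2 difference ran from −0.54 to 0.54 (limma adjusted p = 0.997). In the E and RE libraries *Mmp9* still had 59.4 to 87.0 reads' worth of coverage, well above the floor.

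*Mmp2*, the gene of gelatinase A, was at 1.05 and 1.12 ppm in the E libraries, at 1.5 and 1.43 ppm in the M libraries and at 5.21 and 4.51 ppm in the RE libraries. It was thus highest after TGFβ1 had been removed, with no overlap between any 2 groups. It rose from the M to the RE cells (3.31-fold, log2 fold change 1.66, SE 0.22, limma adjusted p = 0.00140) and was called higher in the RE than in the E cells (4.48-fold, 2.06, SE 0.22, adjusted p = 0.00114). In E vs. M it was not called, with a log2 difference of 0.41 (95% interval −0.10 to 0.91, limma adjusted p = 0.171). Its coverage was modest, from 42.6 to 63.0 reads' worth in the E and M libraries and 199 and 247 in the RE libraries. The call in M vs. RE was lost without any 1 of the 4 M and RE libraries (adjusted p from 0.0160 to 0.0276 by limma), and that in E vs. RE without either RE library (adjusted p = 0.0283 without the first and 0.0175 without the second), while the log2 fold change stayed between 1.56 and 2.17.

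*Mmp3*, *Mmp10*, *Mmp12* and *Mmp13* lie in a run of 10 neighbouring MMP genes on mouse chromosome 9, in the order *Mmp13*, *Mmp12*, *Mmp1b*, *Mmp3*, *Mmp1a*, *Mmp10*, *Mmp8*, *Mmp27*, *Mmp20* and *Mmp7*. Genes of this run are similar in sequence, and although the mapped reads were unique, the way they were summed per gene is not given in the sources used here, so their coverage is less certain than that of single genes. RefSeq promoter windows (GRCm38.p6, a newer build than that used for mapping, 250 bases before to 50 after each gene start) matched 8 of the 10 members, with 9 windows, and none for *Mmp2* and *Mmp9*. The windows were searched for TGANTCA, the binding motif of AP-1 (Fos and Jun proteins), which reads the same on both strands. It occurred once in a window of each of the 4 genes and in none of the windows of *Mmp14*, *Timp1*, *Timp2* and *Timp3*, while 7.81% of all 32851 windows of this length held it. *Mmp12* had 2 windows, and only the second, which lies downstream of the first, held the motif. A match describes the letters of the window and not a bound site. The 150 bases before the gene start are shown for these 4, which shared their highest level in the M cells, and for *Timp1*, which was also highest there, with the motif in capitals.
Mmp3, chr9:7445672-7445821, plus strand: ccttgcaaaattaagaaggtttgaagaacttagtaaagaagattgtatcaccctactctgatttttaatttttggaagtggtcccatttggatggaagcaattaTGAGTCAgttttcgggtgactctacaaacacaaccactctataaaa
Mmp10, chr9:7502192-7502341, plus strand: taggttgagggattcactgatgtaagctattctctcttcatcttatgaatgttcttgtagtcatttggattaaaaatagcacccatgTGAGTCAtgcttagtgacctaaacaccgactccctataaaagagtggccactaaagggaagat
Mmp12, second window, chr9:7347224-7347373, plus strand: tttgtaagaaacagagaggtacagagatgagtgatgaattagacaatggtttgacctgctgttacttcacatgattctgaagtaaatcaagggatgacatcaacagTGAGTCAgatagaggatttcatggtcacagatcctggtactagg
Mmp13, chr9:7272364-7272513, plus strand: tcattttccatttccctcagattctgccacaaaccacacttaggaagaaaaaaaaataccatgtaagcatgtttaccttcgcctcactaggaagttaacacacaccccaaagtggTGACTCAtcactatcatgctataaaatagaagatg
Timp1, chrX:20870016-20870165, plus strand: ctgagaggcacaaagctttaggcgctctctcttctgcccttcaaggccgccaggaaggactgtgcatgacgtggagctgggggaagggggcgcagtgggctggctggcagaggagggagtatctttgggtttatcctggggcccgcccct

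**Figure D3:**
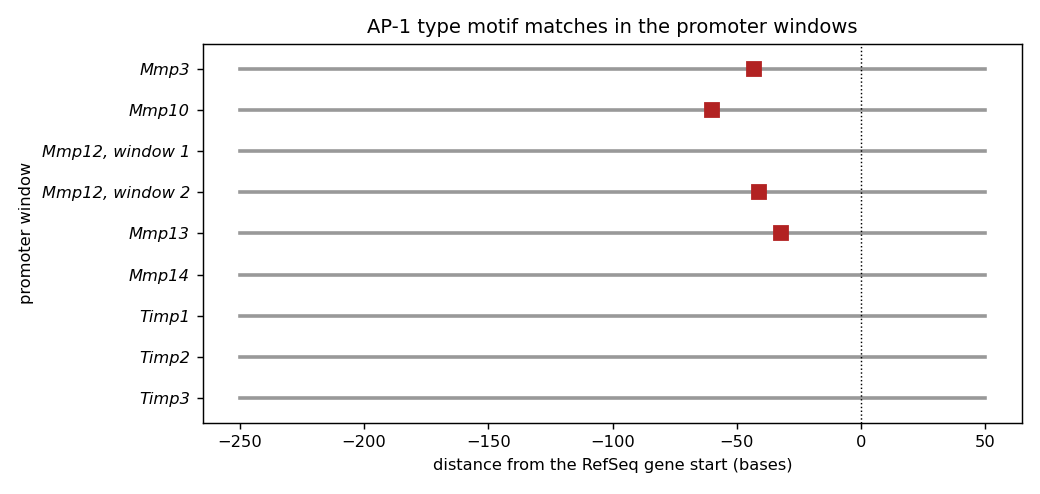
Positions of the AP-1 type motif (red squares) in the promoter windows of the members, as distance in bases from the RefSeq gene start (dotted line). The matches of *Mmp3*, *Mmp10*, *Mmp12* (second window) and *Mmp13* begin 46, 63, 44 and 35 bases before the start, and the other windows have none.

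In these windows the motif began 46 bases before the start of *Mmp3*, 63 before that of *Mmp10* and 35 before that of *Mmp13*. For *Mmp12* it began 44 bases before the second, downstream start, and the window at the first start held none. The levels of the 4 genes differed widely. *Mmp13*, the gene of a collagenase that cuts fibrillar collagen, was at 0.789 and 0.378 ppm in the E libraries, at 17.9 and 12.4 ppm in the M libraries and at 0.654 and 0.499 ppm in the RE libraries. Only the M libraries were high. It rose 26.0-fold in the M cells (log2 fold change 4.53, SE 0.36, limma adjusted p = 1.24e-04) and fell 26.3-fold in the RE cells (−4.48, SE 0.36, adjusted p = 1.41e-04). The E and RE libraries overlapped, with a 95% interval of the log2 difference from −0.79 to 0.88 (limma adjusted p = 0.935).

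*Mmp10*, the gene of stromelysin 2, was at 1.63 and 1.25 ppm in the E libraries, at 19.3 and 15.9 ppm in the M libraries and at 0.168 and 0.241 ppm in the RE libraries. The 3 groups did not overlap, and the RE cells lay below the E cells. The gene rose 12.2-fold in the M cells (log2 fold change 3.52, SE 0.26, limma adjusted p = 9.3e-05) and fell 85.9-fold in the RE cells (−5.86, SE 0.26, adjusted p = 1.65e-05). It was 7.05-fold lower in the RE than in the E cells (−2.34, SE 0.26, limma adjusted p = 0.00135), the only member called below the E level. The RE libraries held 7.98 and 10.6 reads' worth of *Mmp10*, close to the floor. The value depends on the pseudocount at such levels and was −1.02 with a pseudocount of 1 ppm, still called. This call was lost in a fit of E and RE alone (limma adjusted p = 0.0104) and without the first (0.0257) or the second RE library (0.0147).

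*Mmp3*, the gene of stromelysin 1, was at 11.4 and 3.05 ppm in the E libraries, at 16.5 and 18.5 ppm in the M libraries and at 6.17 and 4.81 ppm in the RE libraries. The M libraries were highest, and both RE libraries lay between the E libraries, which were far apart. No comparison was called, with log2 differences of 1.55 in E vs. M (95% interval 0.32 to 2.77, limma adjusted p = 0.0490), −1.66 in M vs. RE (−2.89 to −0.44, adjusted p = 0.0471) and −0.12 in E vs. RE (−1.34 to 1.11, adjusted p = 0.883). The E vs. M value depended on the E library used: it was 2.48 without the first and 0.61 without the second E library. With 1 E library left, the fit holds no spread within the E cells, so only the values are given. M vs. RE kept the value of −1.66 without either E library. In E vs. RE the value was 0.81 without the first E library, 0.06 without the second RE library and −1.05 without the second E library.

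*Mmp12*, the gene of macrophage elastase, was the lowest member, at 0.260 and 0.0944 ppm in the E libraries, 0.817 and 1.52 ppm in the M libraries and 0.231 and 0.0803 ppm in the RE libraries. The M libraries held 34.3 and 62.1 reads' worth, and the second E and second RE library only 3.60 and 3.54. The log2 difference was 2.20 in E vs. M (95% interval 1.05 to 3.36, limma adjusted p = 0.0108) and −2.32 in M vs. RE (−3.47 to −1.16, adjusted p = 0.0113), just outside the threshold in both. With a pseudocount of 1 ppm the values were 0.86 and −0.89. The E vs. M value was 2.65 without the first and 1.76 without the second E library, and M vs. RE stayed at −2.32 in both fits.

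Since macrophages are a known source of MMP9 and MMP12, markers of that cell type were set beside these results. *Csf1r*, the gene of the receptor for macrophage colony-stimulating factor, was at 1.55 and 1.28 ppm in the E libraries, at 25.7 and 30.1 ppm in the M libraries and at 2.07 and 1.44 ppm in the RE libraries (log2 fold change 4.21 in E vs. M, limma adjusted p = 3.26e-05). *Cd14* was called in E vs. M (1.38) and E vs. RE (1.45). Both calls were lost in a fit of the compared groups alone and without any 1 M or RE library. The E vs. M call was also lost with library totals only. The part of these genes in the *Mmp9* and *Mmp12* levels was not tested. *Cd68*, the gene of a lysosomal protein abundant in macrophages, was at 5.20 and 9.25 ppm in the E, 7.17 and 6.81 ppm in the M and 5.14 and 5.96 ppm in the RE libraries and was not called in any comparison (0.01 in E vs. M). The 6 macrophage markers summed to 18.1 to 19.3 ppm in the E, 58.7 to 62.1 ppm in the M and 32.5 to 35.5 ppm in the RE libraries. *Ptprc*, the pan-leukocyte gene, was at 3 reads' worth or less in every library (0 to 0.0787 ppm), and *Adgre1* (listed as *Emr1*), which marks mature macrophages, was at 4 reads' worth or less.

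*Mmp14* encodes the membrane-bound MMP that cuts collagen at the cell surface and activates pro-MMP2, and it was the most covered MMP gene of the E and RE cells. It was at 291 and 258 ppm in the E libraries, at 497 and 491 ppm in the M libraries and at 311 and 307 ppm in the RE libraries. All E and RE libraries were below both M libraries, and the RE libraries were also slightly above the E libraries. The log2 difference was 0.85 in E vs. M (1.80-fold, 95% interval 0.55 to 1.15, limma adjusted p = 0.00197) and −0.68 in M vs. RE (1.60-fold, −0.97 to −0.38, adjusted p = 0.00676). Both adjusted p were below 0.01, and *Mmp14* was not called because the changes were under the 2-fold threshold, whereas both were called at a fold threshold of 1.5. With library totals only, the E vs. M value was 0.55 (limma adjusted p = 0.0125). Between E and RE the difference was 0.17 (95% interval −0.12 to 0.47, limma adjusted p = 0.331).

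Among the inhibitors, *Timp1* followed the proteases of the M cells and *Timp2* and *Timp3* did not. *Timp1* encodes a secreted inhibitor that also binds pro-MMP9. It was at 50 and 45.9 ppm in the E libraries, at 199 and 214 ppm in the M libraries and at 66.0 and 72.6 ppm in the RE libraries, with no overlap between groups. It rose 4.30-fold in the M cells (log2 fold change 2.10, SE 0.13, limma adjusted p = 4.37e-05) and fell 2.98-fold in the RE cells (−1.57, SE 0.13, adjusted p = 1.48e-04). The RE libraries remained 1.45-fold above the E libraries, a difference that was not called (0.53, 95% interval 0.23 to 0.83, limma adjusted p = 0.0198).

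*Timp2*, whose product inhibits MMPs and forms the complex with MMP14 that activates pro-MMP2, was at 279 and 313 ppm in the E libraries, at 346 and 367 ppm in the M libraries and at 429 and 413 ppm in the RE libraries. The order E, M, RE held for every library, but the steps were small. The log2 difference was 0.27 in E vs. M (95% interval −0.03 to 0.57, limma adjusted p = 0.130), 0.24 in M vs. RE (−0.06 to 0.54, adjusted p = 0.198) and 0.51 in E vs. RE (0.21 to 0.81, adjusted p = 0.0240), and none was called. With libraries scaled by their totals only, which shifted the median of all genes to −0.29 in E vs. M, the *Timp2* value there was −0.03.

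*Timp3*, the gene of the inhibitor that is bound to the matrix, was at 144 and 243 ppm in the E libraries, at 202 and 241 ppm in the M libraries and at 382 and 391 ppm in the RE libraries. The E and M libraries overlapped, and the RE libraries were above both. The RE mean was 2.00 times the E mean, a log2 difference of 1.05 (95% interval 0.49 to 1.61, limma adjusted p = 0.0170) that was not called, and the difference from M to RE was 0.81 (0.25 to 1.37, adjusted p = 0.0382). The first E library was the lowest of all. Without it the E vs. RE value was 0.67, and without the second E library the value was 1.43. E vs. M was 0.24 (−0.32 to 0.80, limma adjusted p = 0.451), and −0.14 without the first E library.

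The inhibitor genes overlap other genes in the newer annotation: *Timp1* lies within *Syn1* and *Timp3* within *Syn3*, on the opposite strand, and *Timp2* contains *Cep295nl* (listed as *Ddc8*). The coverage of these partners was from 0.675% to 2.12% of that of *Timp1*, from 0.211% to 0.466% of *Timp3* and from 1.07% to 2.83% of *Timp2*, in any library, and none was called in any comparison.

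Levels were compared between genes as ppm per kb of the longest coding transcript. In the E cells *Mmp14* (89.9 and 79.8 ppm per kb) and *Timp2* (75.2 and 84.4) were highest and overlapped, followed by *Timp1* (56.6 and 52.0) and *Timp3* (30.5 and 51.4). In the M cells *Mmp9* was first (303 and 274 ppm per kb), above *Timp1* (225 and 242), *Mmp14* (154 and 152), *Timp2* (93.4 and 98.9) and *Timp3* (42.8 and 51.0). In the RE cells the order was *Timp2* (116 and 111 ppm per kb), *Mmp14* (96.2 and 94.9), *Timp3* (81.0 and 82.8) and *Timp1* (74.8 and 82.2), the last pair overlapping. *Mmp3* and *Mmp10* reached 9.71 and 10.2 ppm per kb on average in the M cells, and *Mmp2* 1.58 in the RE cells, so that these genes contributed little to the sum of transcripts in any state. With the median length of the coding transcripts in place of the longest, *Timp2* was first in E and *Timp3* passed *Mmp14* in RE, while *Mmp9* stayed first in M.

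**Figure D4:**
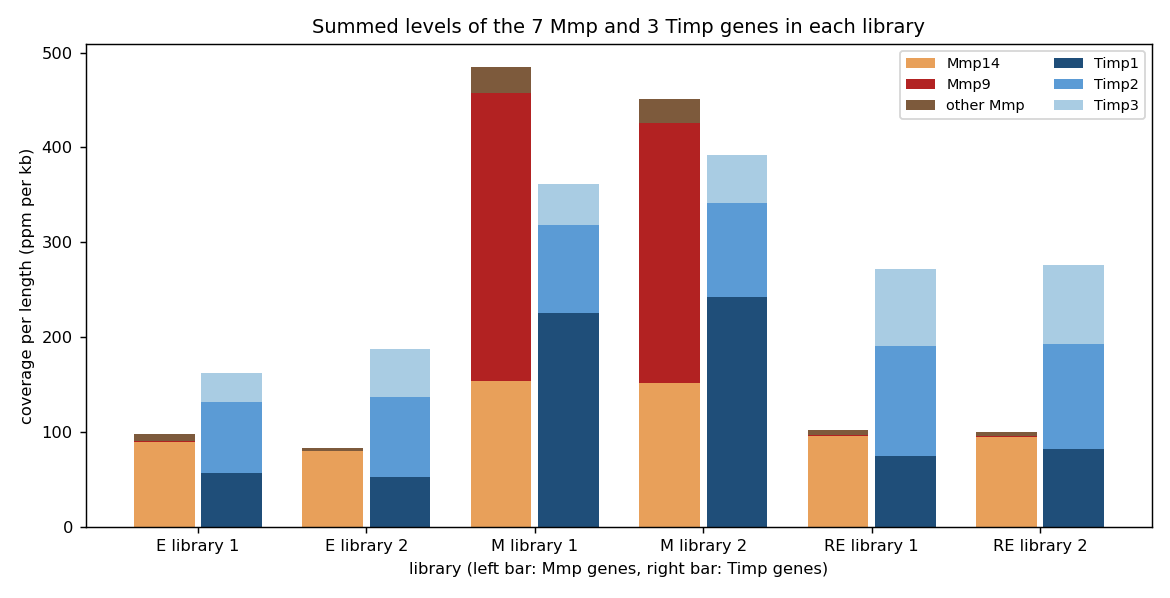
Coverage per transcript length (ppm per kb) summed over the 7 Mmp genes (left bars) and the 3 Timp genes (right bars) in each of the 6 libraries, with the parts of single genes in colour. The Mmp bar exceeds the Timp bar only in the M libraries, where *Mmp9* makes up 62.6% and 60.8% of it.

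Summed per length, the 7 proteases reached 98.3 and 83.3 ppm per kb in the E libraries, 484 and 451 in the M libraries and 102 and 100 in the RE libraries. The 3 inhibitors reached 162 and 188 ppm per kb in the E, 361 and 392 in the M and 271 and 276 in the RE libraries. Protease transcripts were thus below inhibitor transcripts in the E libraries (ratio 0.606 and 0.443), above them in the M libraries (1.34 and 1.15) and below them again in the RE libraries (0.376 and 0.362). With median transcript lengths the protease sums of the M libraries were 756 and 700.3 ppm per kb, and the ratios were 0.503 and 0.357 in the E, 1.62 and 1.37 in the M and 0.302 and 0.294 in the RE libraries. These ratios are a description of transcript levels of the listed members alone, with no test. Other MMP genes are outside the sums, among them *Mmp11*, at 19.1 to 22.5 ppm in every library and not called in any comparison. *Mmp14* made up 91.4% and 95.8% of the protease sum in the E libraries and 94.2% and 94.9% in the RE libraries, but 31.7% and 33.7% in the M libraries, where *Mmp9* made up 62.6% and 60.8%. The ratio of *Mmp9* to *Timp1* per length was 0.00787 and 0.0106 in the E, 1.35 and 1.13 in the M and 0.00527 and 0.00756 in the RE libraries, and with median lengths 2.31 and 1.95 in the M libraries. For *Mmp14* and *Timp2*, which act together, it was 1.20 and 0.945 in the E, 1.64 and 1.53 in the M and 0.831 and 0.852 in the RE libraries. With median lengths it was below 1 in both E libraries (0.890 and 0.704) and 1.22 and 1.14 in the M libraries. The side of 1 in E thus depended on the length used. The order of the states could not, because a change of length scales this ratio alike in every library.

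Of the 17 other MMP and TIMP genes, 16 were in the table and 9 passed the filter. In E vs. M, 1 was called higher and 1 lower (8.41% and 8.35% of all genes). From M to RE 1 rose and 3 fell (7.92% and 4.79%), and 2 were higher in RE than in E (5.93%). *Mmp15*, the gene of another membrane-type MMP, ran opposite to *Mmp9*. It was at 8.63 and 6.19 ppm in the E libraries, at 0.882 and 0.734 ppm in the M libraries and at 21.2 and 19.4 ppm in the RE libraries. It fell 9.17-fold in the M cells (log2 fold change −3.03, limma adjusted p = 9.3e-05), rose 25.1-fold in the RE cells (4.49, adjusted p = 2.35e-05) and ended 2.74-fold above the E cells (1.46, adjusted p = 0.00407). The call in E vs. RE was lost in a fit of E and RE alone and without any 1 M or RE library. *Mmp16*, also membrane-type, had no coverage in any E or RE library and 0.286 and 0.268 ppm in the M libraries, at least 3.74-fold above the E floor. *Mmp1b* was at 0.582 and 0.990 ppm in the M libraries and at 0 and 0.0204 ppm, below the floor, in the RE libraries (at least 12-fold lower). Both *Mmp16* and *Mmp1b* passed the filter only through the M libraries, where they were high, so their calls, which are in the counts above, are given with no test. *Mmp19* was at 5.46 and 4.98 ppm in the E, 5.65 and 5.57 ppm in the M and 12 and 10.7 ppm in the RE libraries. It was called higher in the RE than in the E cells (1.10, limma adjusted p = 0.00421). That call was lost in a fit of E and RE alone, with a pseudocount of 1, with array weights and without any 1 M or RE library. Of the chromosome 9 run, *Mmp7*, *Mmp8*, *Mmp20* and *Mmp27* did not pass the filter, with at most 0.116 ppm in any library.

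Of 13 genes for activators of MMPs and for proteins that hold them at the cell surface, 11 were tested. In the M cells 6 were called higher than in the E cells and 0 lower (8.41% and 8.35% of all genes). From M to RE 6 fell and 1 rose (4.79% and 7.92%), while E vs. RE had 1 higher (5.93%). *Furin*, which encodes the convertase that activates MMP14, went from 114 ± 19.5 (SD, n = 2) to 352 ± 9.37 ppm in the M cells, a rise of 1.64 on the log2 scale (limma adjusted p = 2.4e-04). It was named for its role after its values were seen. *Plau*, the gene of urokinase, whose product plasmin activates several MMPs, rose 3.93-fold in the M cells (1.98, limma adjusted p = 1.36e-04) and fell 7.47-fold in the RE cells (−2.90, adjusted p = 3.41e-05). *Cd44*, which encodes a docking protein for MMP9, rose 3.66-fold and fell 3.51-fold (1.93 and −1.81, adjusted p = 0.00103 and 0.00170 by limma), the fall being lost as a call without any 1 M or RE library. *Itgb3*, whose product pairs with that of *Itgav* in an integrin that binds MMP2, had 1 and 0 reads' worth in the E libraries and 10.4 and 11.9 ppm in the M libraries, at least 151-fold above the floor of the E libraries. It passed the filter only through the M libraries, so its calls, which are in these counts, support nothing further. *Itgav* was called in E vs. M (3.20, limma adjusted p = 1.18e-04) and E vs. RE (1.61, adjusted p = 0.00433). The latter call was lost in a fit of E and RE alone and without any 1 M or RE library.

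Of 11 genes for inhibitors, clearance receptors and binding partners, 6 were tested. In E vs. M 2 were higher and 1 lower (8.41% and 8.35% of all genes). From M to RE 2 rose and 0 fell (7.92% and 4.79%), and 2 were higher in RE than in E (5.93%). *Lcn2*, whose product forms a complex with MMP9, fell 44.7-fold in the M cells (−5.24, limma adjusted p = 1.38e-05) and rose 24.7-fold in the RE cells (4.41, adjusted p = 2.45e-05). *Lrp1*, the gene of an endocytic receptor that clears MMP and TIMP complexes, was higher in the M (2.41, limma adjusted p = 6.8e-04) and the RE cells (1.65, adjusted p = 0.00603) than in the E cells, calls that were lost without either M library and, for RE, also without either RE library, with no filter and in a fit of E and RE alone. *Reck*, the gene of a membrane-anchored MMP inhibitor, rose 3.01-fold from M to RE (1.57, limma adjusted p = 0.00741). That call was lost with no filter and without any 1 M or RE library. The *Reck* difference between RE and E was 1.39 and was not called (limma adjusted p = 0.0142).

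The genes nearest to each called member in pattern were found as those with the smallest root mean square difference of centred log2 values over the 6 libraries, among 10090 genes with a mean log2 value of at least 2. For *Mmp2* they were *Bgn* and *Pcdh17* (0.09 each), with *Bgn*, the gene of the proteoglycan biglycan, at 4.67 and 4.85 ppm in the E, 7.41 and 6.97 ppm in the M and 24.5 and 21.7 ppm in the RE libraries. For *Timp1* they were *Relt* (0.08) and *Plod2* (0.15). For *Mmp13* they were *Csf1r* (0.37) and *Gng11* (0.40), and for *Mmp10* *Siglecg* (0.44) and *Col7a1* (0.53). *Mmp9*, with a log2 fold change of 9.09 in E vs. M, had more distant neighbours. The nearest were *Adamts4* (1.16), the gene of an aggrecan-cutting protease, and *Tnc* (1.38), with 7.49 and 7.33 in E vs. M. Both were likewise highest in the M libraries. All 6 libraries enter both sides of these values, which depend on the size of the changes as well as on their shape.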

How the data were processed

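RNA from the E, M and RE states of EpH4 was sequenced, with 2 libraries per state. The authors used Bowtie and TopHat2 to place unique reads on NCBI-m37, the mouse build, and deposited 1 table of whole numbers for 17428 genes that behave as unscaled coverage (signal), since 44.8% to 48.4% of the values from 1 to 400 are multiples of 50 in each library. The step that summed reads per gene is not given in the sources used here, and edgeR, which the study used, needs read counts and was not run. Columns were matched to libraries by name.

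Coverage was scaled by TMM factors without weights (trims of 30% on log ratios and 5% on levels, factors from 0.875 to 1.12) from the 13893 genes that passed the filter of 500 bases in 2 or more libraries. limma 3.58.1 in R 4.3.3 was fitted to log2(ppm + 0.1) over all 6 libraries, group only, with a trend on mean level. Log2 fold changes are positive where the second group named is higher. With n = 2 per group the precision is limited.

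The members and all gene lists were chosen with earlier results of these data known. Genes named from the lists are up to 3 called genes with the largest change per list and comparison. 1 gene of the inhibitor list is not reported here and was left out of its counts. *Furin*, *Mmp11* and the transcription factor genes outside this rule were chosen after their values were seen. Transcript lengths (GENCODE M21) and promoters (RefSeq, GRCm38.p6) come from a newer build than NCBI-m37 and were matched by symbol. The longest coding transcript was used, and the planned median length is given as the alternative, because the coding models include short fragments. Alternatives were thresholds of 1.5-fold or adjusted p 0.05, other size factors, library totals, no or a stricter filter, 2-group fits, the replicate block, pseudocounts of 0.025 and 1, array weights, leaving out each library and, chosen after the data were seen, TMM factors from all genes.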

Additional observations from a re-analysis of the deposited data

How the results depend on the processing

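The count of members called stayed at 3 to 6 for E vs. M and at 4 to 7 for M vs. RE over all alternatives. In E vs. RE, where 2 were called, 1 was called with the filter in every library, which drops *Mmp10* and *Mmp12*, and 1 when E and RE were fitted without the M libraries (462 genes in all against 1263). Without 1 library at a time the count of members was 4 to 6 for E vs. M, 4 to 7 for M vs. RE and 0 to 4 for E vs. RE, the lowest without either RE library and the highest without the second E library. Over all genes, 858 to 3352 calls were then made for E vs. M, 627 to 2306 for M vs. RE and 8 to 2333 for E vs. RE. Each fit without 1 library leaves 1 library in its group, which adds nothing to the pooled spread. The counts of calls then depend on which group that is. The calls on *Mmp9*, *Mmp10*, *Mmp13* and *Timp1* in E vs. M and M vs. RE were kept under every alternative that tested the gene. With library totals only, 30.5% of the calls for E vs. M were upward (50.2% otherwise), and 73.8% of those for M vs. RE (62.3%). The median of all genes was then −0.29 for E vs. M, 0.18 for M vs. RE and −0.08 for E vs. RE, and 3 uncalled values changed sign, those of *Timp2* (−0.03) and *Timp3* (−0.06) in E vs. M and of *Mmp13* in E vs. RE (−0.03).

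Other uncalled values near 0 changed sign as well, and the cause was not tested. *Mmp9* in E vs. RE was 0.01 with median-of-ratios size factors, with no filter and with TMM factors from all genes, 0.00 with a pseudocount of 1, and −0.31 to 0.31 with single libraries left out (0.14 without the second E and 0.31 without the first RE library). In the same way *Mmp12* ran from −0.56 to 0.33 (0.32 without the second RE library), *Mmp13* from −0.40 to 0.49 (−0.12 without the first RE library) and *Mmp3* from −1.05 to 0.81. *Timp3* in E vs. M ran from −0.14 to 0.62. *Mmp12* was called in E vs. M with TMM factors from all genes (limma adjusted p = 0.00983). In M vs. RE, *Mmp3* and *Mmp12* were called when M and RE were fitted on their own (adjusted p = 1.9e-06 and 4.01e-04 by limma) and with array weights (4.06e-05 and 2.84e-04), and *Timp3* in E vs. RE with array weights (0.00611).

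The replicate numbers are shared by the groups, but deviations of same-numbered libraries had correlations of 0.266 (E with M), 0.0579 (E with RE) and 0.116 (M with RE), so the numbers were not taken to pair the libraries. With the replicate block, 4 members were called for E vs. M, 5 for M vs. RE and 2 for E vs. RE, as without it, among 2389, 1793 and 1215 genes, and no call on a member changed. Depth limits *Mmp12* and the *Mmp10* values of the RE cells, which rest on few reads.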

Other observations

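Matrix genes whose products are substrates of MMPs were also followed. Of 20 such genes 16 were tested, and in E vs. M 11 were called higher and 2 lower (8.41% and 8.35% of all genes). From M to RE 2 rose and 8 fell (7.92% and 4.79%), and 5 were higher and 1 lower in RE than in E (5.93% and 3.16%). *Tnc*, the gene of tenascin C, had the largest change, from 87.1 to 13235 ppm on average in the M cells (log2 fold change 7.33, limma adjusted p = 1.38e-05) and back to 243 ppm in the RE cells (−5.77, adjusted p = 2.6e-05). Among fibrillar collagen genes, *Col1a1*, *Col1a2* and *Col3a1* stayed above the E cells in the RE cells (2.85, 2.09 and 3.12, adjusted p = 2.8e-04, 6.02e-04 and 6.65e-04 by limma). The *Col1a2* and *Col3a1* calls were lost without either RE library, and that of *Col1a1* without the first. *Col5a1*, also fibrillar, was called in E vs. M (3.75) and fell from M to RE (−2.85). It was not called in E vs. RE (0.90, limma adjusted p = 0.0313). *Col4a6*, a basement membrane collagen gene, was called in E vs. M (−1.95) and, in the opposite direction, in M vs. RE (3.36).

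Genes of 21 transcription factors with known sites in MMP promoters were all tested. In E vs. M 4 were called higher and 5 lower (8.41% and 8.35% of all genes). From M to RE 3 rose and 2 fell (7.92% and 4.79%), and 4 were higher and 2 lower in RE than in E (5.93% and 3.16%). Those called higher in the M cells were *Zeb1* (3.31), *Zeb2* (3.19), *Snai1* (1.82) and *Runx1* (1.20). *Zeb1* and *Zeb2* were also among those higher in RE than in E (3.18 and 2.48), calls lost without either RE library. *Elf3* was called lower in the M cells (−2.70) and rose from M to RE (2.49). Among the AP-1 genes, *Fos* was at 189.8 ppm on average in the E cells, 13.4 ppm in the M cells and 55.8 ppm in the RE cells, and was called in E vs. M (−3.80, limma adjusted p = 2.48e-05). *Fosb*, *Jun* and *Jund* were also called lower in the M cells (−3.37, −1.35 and −1.32). *Fosl1*, *Fosl2* and *Junb* were not called in E vs. M (−0.83, −0.57 and −0.44, adjusted p = 0.0127, 0.224 and 0.0745 by limma). RNA levels of these factors do not give their activity, which was not measured here.

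The fibroblast markers tested, 5 genes, were all called higher in the RE than in the E cells, as were 5.93% of all genes. The *Col3a1* call was lost without either RE library, and those of *Col1a1* and *Pdgfrb* without the first. The *Dcn* and *Pdgfra* calls in E vs. RE were not followed through the alternatives. In E vs. M 3 were called higher and *Dcn* lower (−2.25, from 0.400 to 0.00342 ppm on average, below the floor). The 5 genes summed to 116 and 147 ppm in the E, 1040.5 and 888 ppm in the M and 1174 and 967 ppm in the RE libraries. Their part in the RE level of *Mmp2* was not tested.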
